A study of Homo sapiens with 16 samples.

Results

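The mRNAs described here encode the translation initiation factors and the kinases of eIF2. They were taken by gene name, as every gene whose name begins with EIF and a digit from 1 to 6, apart from the 4 older EIF2C names that belong to Argonaute proteins. Of the 13148 genes measured, 52 met this rule: 4 eIF2 kinases, 8 subunits of eIF2 and eIF2B, 13 subunits of eIF3, 15 genes of the eIF4 group and 12 other initiation factors. The cells were 293S, a human line derived from HEK293 embryonic kidney cells. One group received sodium arsenite at 1 mM over 30 minutes, and the control group received no treatment, with no other agent or genotype on either label. RNA from each treatment was separated on a sucrose gradient into 8 fractions, and each fraction gave 1 library, 16 in all. The deposited value of a gene in a library is its share, the part of that gene's total in one gradient that lay in that fraction. Shares carry no expression level, so the cell line could not be checked against marker genes, read depth is unknown, and no interval or detection limit can be given.

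In a sucrose gradient, an mRNA that carries many ribosomes sediments farther than one that carries few or none. Initiation begins when eIF2, bound to GTP and the initiator tRNA, loads the small ribosomal subunit together with eIF1, eIF1A, eIF3 and eIF5, while eIF4F, made of the cap-binding protein eIF4E, the helicase eIF4A and the scaffold eIF4G, brings the mRNA. After each round eIF2B exchanges the GDP on eIF2 for GTP, and stress kinases that phosphorylate eIF2 alpha turn eIF2 into an inhibitor of eIF2B. Arsenite is known to trigger that phosphorylation, mainly through EIF2AK1.

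Some initiation factors belong to the mRNAs that begin with a terminal oligopyrimidine tract, known as TOP mRNAs, whose translation responds to mTOR. The annotated starts of the members were therefore searched, on the transcribed strand only, for a C at the first base followed by at least 4 bases that were all C or T. Of the 44 members with a RefSeq promoter sequence, 9 (20.5%) had such a start, against 571 of 10680 genes (5.35%). The first 20 bases of these 9 mRNAs are shown because the share with such a start was higher among the members than among all genes. Capitals mark the pyrimidine tract, and positions refer to RefSeq on GRCh38.p14, which is not the build of the deposited values.
EIF2A, chr3:150546787-150546806, plus strand: CTCTTTCCgggacaacatgg
EIF2D, chr1:206612446-206612465, minus strand: CCTTTTCgcggccgggcccc
EIF2S3, chrX:24054956-24054975, plus strand: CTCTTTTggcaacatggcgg
EIF3D, chr22:36529147-36529166, minus strand: CTCTTTTCCTggtttctcaa
EIF3F, chr11:7987337-7987356, plus strand: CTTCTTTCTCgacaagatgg
EIF3K, chr19:38619188-38619207, plus strand: CTCTTCCTgttcccgtcctt
EIF3M, chr11:32583831-32583850, plus strand: CTTTTCCggtcggcgtggtc
EIF4A2, chr3:186783577-186783596, plus strand: CTTTTCagtcgggcgctgag
EIF4B, chr12:53006456-53006475, plus strand: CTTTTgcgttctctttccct
An annotated start is not a mapped cap site, and a match of these letters is a description of the window and not of a regulatory site.

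Each profile was summarised by its position, the mean fraction number from 1 to 8 weighted by the shares. Whether fraction 1 is the light or the heavy end is not stated in the labels. All 52 members had a lower position with arsenite than in the control, as did 98.3% of all genes. Their median position was 2.98 with arsenite, against 4.79 in the control, while that of all genes was 3.10 with arsenite, against 4.54 in the control. All 52 members also had a lower summed share in fractions 5 to 8 with arsenite, as did 95.7% of all genes, so neither count sets the members apart. The median of that summed share over the members was 12.6% with arsenite, against 61.9% in the control, and over all genes it was 16.4% with arsenite, against 53.9% in the control. At least 50% of the total lay in fractions 5 to 8 for 1 member with arsenite, against 41 members in the control, and for 308 of all genes with arsenite, against 7711 in the control. The 1 member was EIF4EBP3, which is listed at 0 in fractions 1 to 3 of both gradients. The sources used here do not say how the 8 libraries of a gradient were scaled against each other, and a common shift and a change of scaling between the gradients cannot be told apart.

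**Figure D1:**
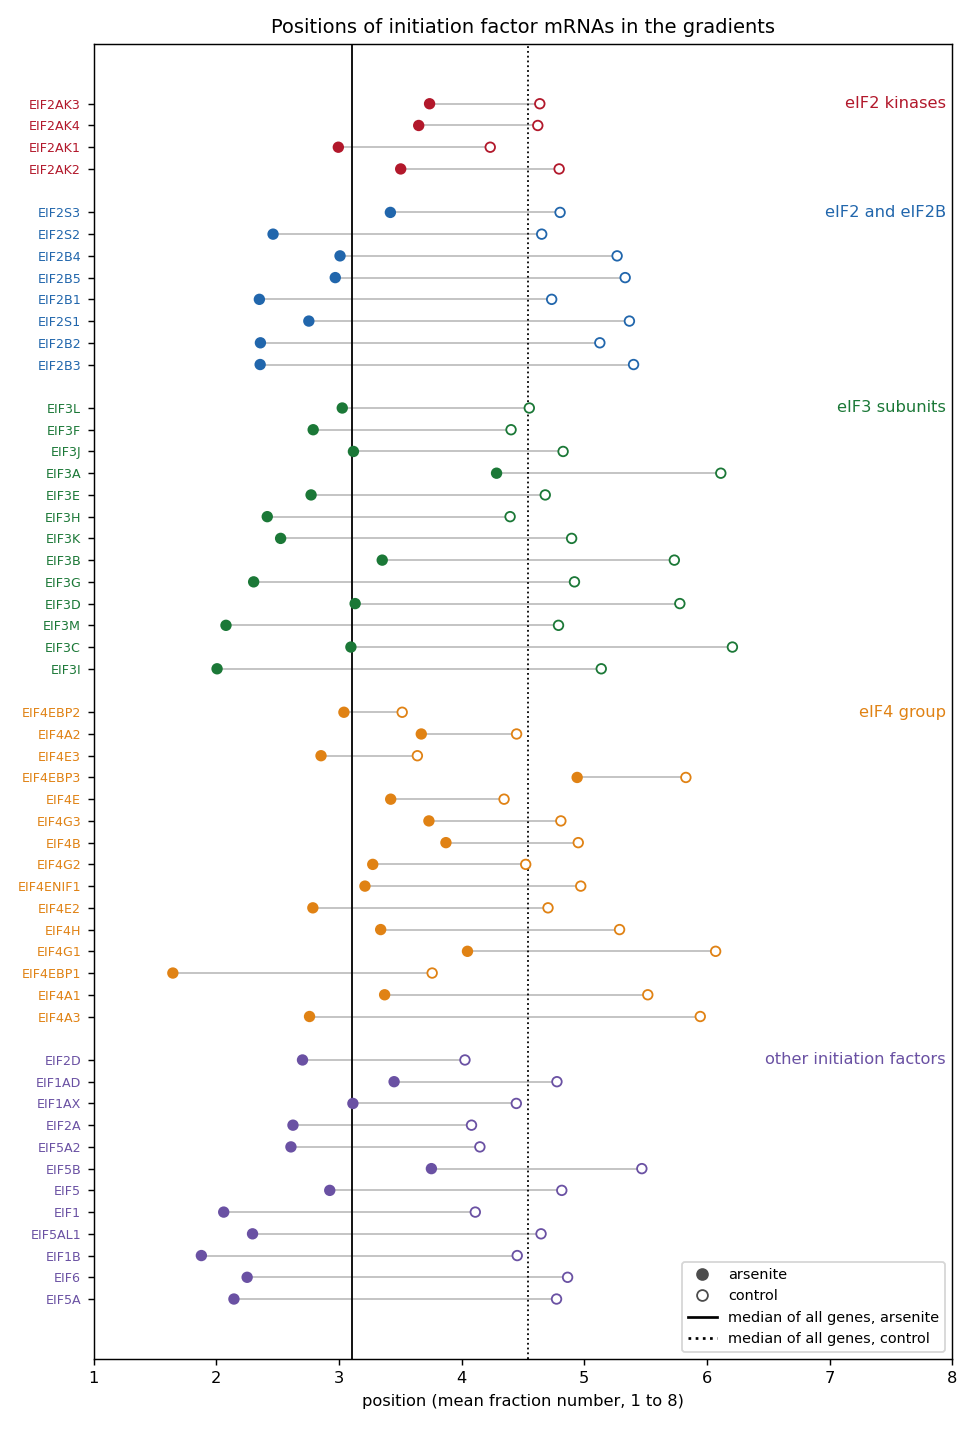
Position of each of the 52 mRNAs, the mean fraction number from 1 to 8, with arsenite (filled) and in the control (open), joined by a line and grouped by role, with 1 library per treatment and fraction. The solid and dotted vertical lines mark the medians of all 13148 genes, 3.10 with arsenite and 4.54 in the control, and every filled point lies left of its open point.

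Because almost every gene moved in one direction, members were compared by their relative shift, which is the position with arsenite minus that in the control, minus the median of this difference over all genes (−1.46 fractions). A member was called higher or lower when this value reached 0.5 fractions in either direction and its sign did not turn on leaving out any of the 8 fraction numbers. A member called higher therefore still had a lower position with arsenite, but fell by less than the median gene. Of the 52 members, 6 were called higher, where the rule called 23.6% of all genes, and 24 were called lower, where it called 24.0% of all genes. The other 22 members were not called. Without fraction 1, or without fraction 6, 3 members were called higher. The median relative shift of the 52 was −0.46, and the quartiles of all genes were −0.52 and 0.48. With no replicate library there is no test of any of these differences, and the groups of members are compared by counts and medians only.

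In the shares themselves, arsenite placed the largest share of 10 members in fraction 1, of 13 in fraction 2, of 24 in fraction 3, of 3 in fraction 4 and of 2 in fraction 5. Fractions 1, 2 and 3 thus had the largest share of 19.2%, 25.0% and 46.2% of the members, against 14.3%, 34.5% and 37.2% of all genes. In the control the largest share lay in fraction 2 for 1 member, in fractions 3 and 4 for 4 members each, in fraction 5 for 16, in fraction 6 for 18 and in fraction 7 for 9. Fractions 5, 6 and 7 of the control had the largest share of 30.8%, 34.6% and 17.3% of the members, against 28.6%, 21.6% and 14.9% of all genes. Matched fractions were set against each other as log2 ratios of arsenite to control after adding 1 percentage point to each share. The median ratio of the members was 1.54 in fraction 1 and 1.79 in fraction 2, against 1.16 and 1.50 over all genes in the same fractions. It was −2.55 in fraction 6 and −2.37 in fraction 7, against −1.85 and −1.86 over all genes. The loss from fraction 6 was deepest among the subunits of eIF2 and eIF2B (median log2 ratio −3.19) and of eIF3 (−3.14), while it was −1.44 both for the kinases and for the eIF4 group.

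**Figure D2:**
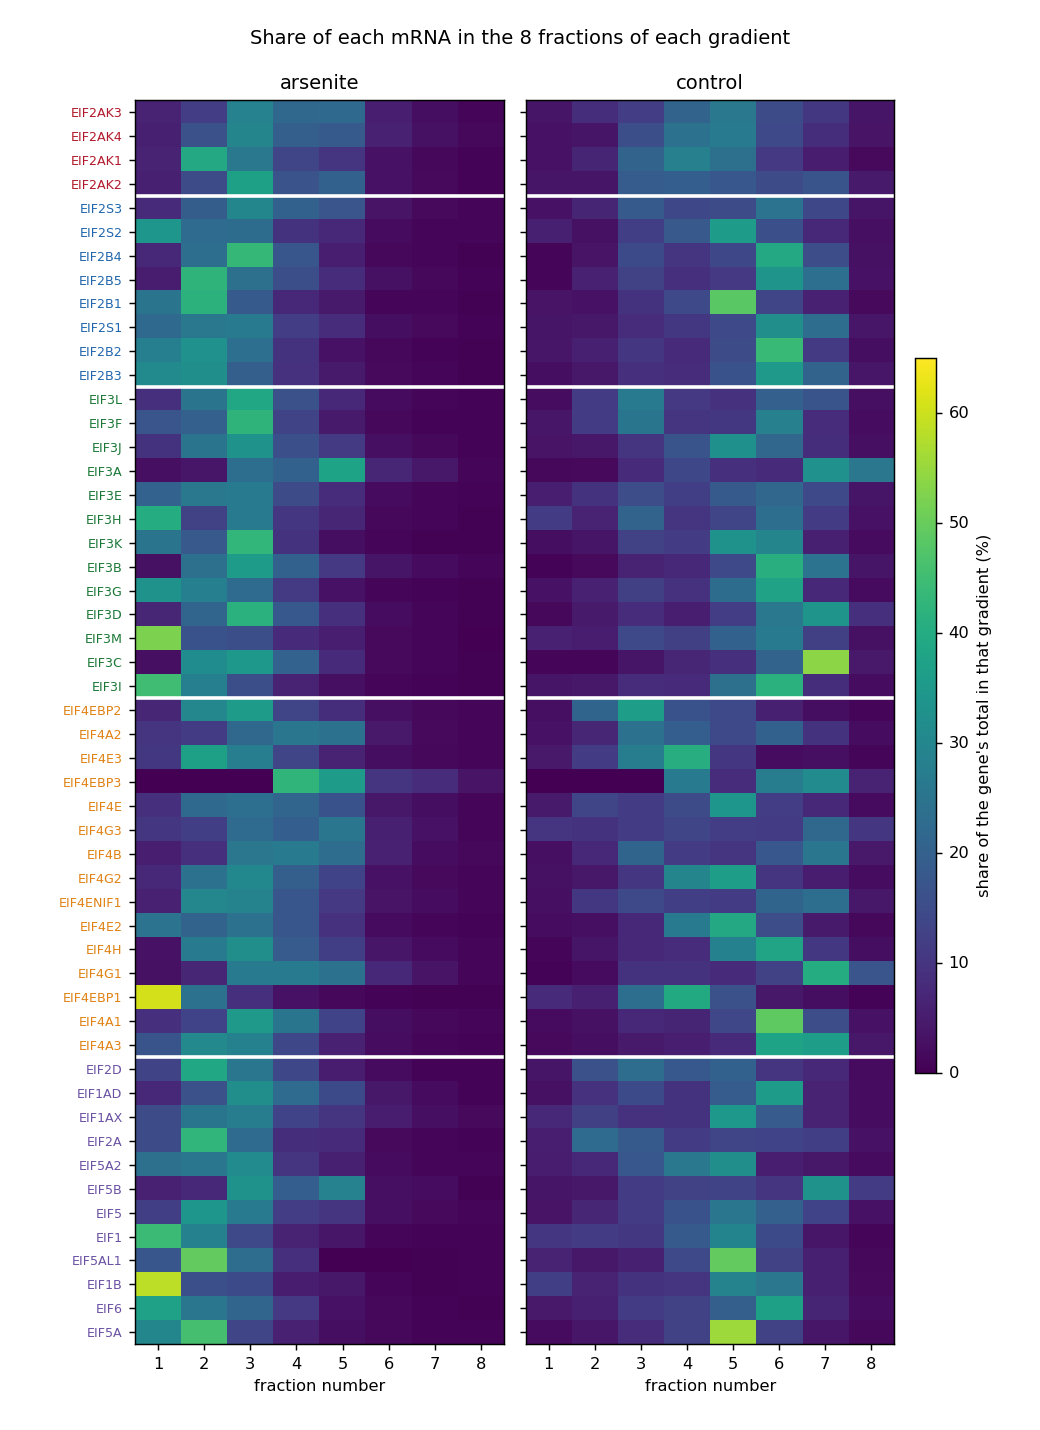
Share of each mRNA's total (%, colour scale) in the 8 fractions of the arsenite gradient (left) and the control gradient (right), 1 library per column, with members in rows grouped by role. Arsenite placed the largest share of 47 members in fractions 1 to 3, where it placed that of 86.0% of all genes. The control placed the largest share of 43 members in fractions 5 to 7, where it placed that of 65.1% of all genes.

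The mRNAs of the 4 eIF2 kinases had relative shifts between 0.16 and 0.56 and a median of 0.35 (0.23 without fraction 1), so each fell by less than the median gene. Under some alternative settings EIF2AK2 and EIF2AK1 had values below 0. Only EIF2AK3 passed the rule (1 higher, 0 lower, 3 not called), and EIF2AK1 and EIF2AK2 lay inside the quartiles of all genes. The rule called 23.6% of all genes higher and 24.0% lower, so 1 of 4 called higher does not set the kinases apart. The 4 kinase mRNAs had a median position of 3.58 with arsenite, against 4.63 in the control. Their median share in fractions 5 to 8 was 27.1% with arsenite, against 53.7% in the control. EIF2AK3 encodes PERK, the kinase of the endoplasmic reticulum that senses unfolded proteins, and had the highest relative shift of the 4. With arsenite, EIF2AK3 had shares of 6.21, 11.7, 28.9, 22.0, 22.2, 5.35, 2.47 and 1.11% in fractions 1 to 8. In the control they were 3.61, 8.38, 11.7, 20.7, 26.1, 15.2, 10.5 and 3.77%. Its shares were lower with arsenite in each of fractions 5 to 8 and higher in each of fractions 1 to 4, with fraction 3 the largest with arsenite and fraction 5 in the control. Its position was 3.74 with arsenite, against 4.64 in the control, a relative shift of 0.56 that was between 0.41 and 0.49 without fraction 1, 2, 5 or 6 and was then not called. EIF2AK1 encodes HRI, the heme-regulated kinase known to respond to arsenite. In the arsenite gradient, fractions 1 to 8 held 6.30, 39.2, 25.9, 13.5, 9.90, 3.09, 1.49 and 0.550% of EIF2AK1. The control shares were 3.19, 6.65, 20.7, 28.3, 23.9, 10.8, 4.95 and 1.61%. The largest share was in fraction 2 with arsenite and in fraction 4 in the control, and the relative shift of 0.22 was not called, though it was 0.57 without fraction 2 and then passed. Set against genes of like control position, in 10 bins, EIF2AK1 had −0.10. EIF2AK2 encodes PKR, which binds double-stranded RNA, and had the lowest relative shift of the 4. Shares of EIF2AK2 with arsenite were 5.74, 15.0, 36.8, 16.7, 20.2, 3.26, 1.53 and 0.758% in fractions 1 to 8. The same fractions held 3.75, 3.65, 18.9, 19.5, 17.8, 14.9, 17.0 and 4.59% in the control. The control profile was nearly flat from fraction 3 to fraction 7, and the relative shift was 0.16, with −0.17 when the libraries were scaled by median-of-ratios size factors and −0.08 without fraction 5. EIF2AK4, which encodes GCN2, the sensor of uncharged tRNA, had a position of 3.65 with arsenite, against 4.62 in the control. Its relative shift of 0.48 lay just under the threshold and passed it without fraction 2 (0.57), without fraction 3 (0.66) and with size factors (0.67).

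The mRNAs of the substrate of these kinases and of its exchange factor lay on the other side of the median gene, apart from EIF2S3. Of the 8 mRNAs for eIF2 and eIF2B, 7 were called lower, 0 higher and 1 was not called, with a median relative shift of −0.92. The rule called 24.0% of all genes lower and 23.6% higher. The median position of the 8 was 2.61 with arsenite, against 5.20 in the control. Their median share in fractions 5 to 8 was 9.59% with arsenite, against 71.4% in the control. All 8 held at least 50% of their total in fractions 5 to 8 in the control. EIF2S1 encodes eIF2 alpha, the subunit that carries the phosphorylated serine. EIF2S1 had 22.3, 26.0, 26.7, 11.9, 8.18, 2.50, 1.72 and 0.671% of its total in fractions 1 to 8 with arsenite. Control cells gave 3.62, 4.08, 8.14, 10.5, 14.4, 32.2, 23.2 and 3.90% in the same order. Fractions 1 to 3 held most of this mRNA with arsenite, and fractions 6 and 7 more than the others in the control, so the 2 profiles peaked in different parts of the gradient. Its position was 2.75 with arsenite, against 5.37 in the control, a relative shift of −1.16. EIF2S2, which encodes eIF2 beta, had a relative shift of −0.73, which was −0.35 without fraction 1 and then not called. EIF2S3 encodes eIF2 gamma, the subunit that binds GTP and the initiator tRNA, and was the member of this group that was not called. Across fractions 1 to 8 with arsenite, EIF2S3 had shares of 7.73, 19.1, 29.7, 20.3, 17.0, 3.43, 1.64 and 1.05%. Without arsenite the shares were 3.26, 6.66, 18.4, 14.0, 15.0, 24.7, 14.2 and 3.72%. It kept 23.1% in fractions 5 to 8 with arsenite, against 57.6% in the control, and its relative shift was 0.07. Its start is one of the pyrimidine tracts.

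All 5 eIF2B mRNAs were called lower, where the rule called 24.0% of all genes. Their relative shifts ran from −1.59 to −0.80, with a median of −0.93. EIF2B3, which encodes the gamma subunit, was the lowest. With arsenite, EIF2B3 had shares of 30.8, 32.5, 19.7, 9.25, 4.77, 1.75, 0.874 and 0.443% in fractions 1 to 8. In the control they were 2.43, 4.09, 8.94, 8.31, 16.4, 35.2, 20.7 and 3.94%. Fractions 1 and 2 were the largest with arsenite and fractions 6 and 7 in the control. Its position was 2.36 with arsenite, against 5.40 in the control, which is a relative shift of −1.59, or −2.38 with size factors. The beta subunit mRNA EIF2B2 had a relative shift of −1.31, the alpha subunit mRNA EIF2B1 one of −0.93, the epsilon subunit mRNA EIF2B5, for the catalytic subunit, one of −0.91, and the delta subunit mRNA EIF2B4 one of −0.80. With size factors EIF2B4 had −1.38. EIF2B1 differed from the others in the control, with 48.3% of its total in fraction 5, whereas the largest control share of the other 4 lay in fraction 6.

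**Figure D3:**
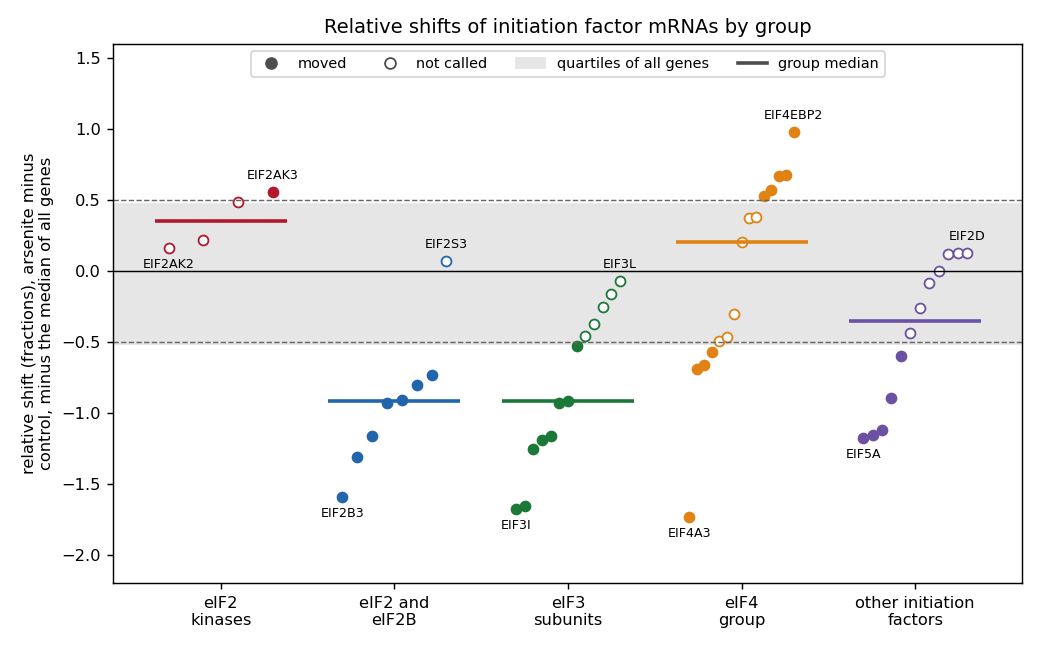
Relative shift of each member (fractions, arsenite minus control, minus the median of all genes) by group, with filled points for members called and open points for those not called. The grey band spans the quartiles of all genes (−0.52 to 0.48), dashed lines mark ±0.5, and the bars mark group medians of 0.35, −0.92, −0.92, 0.21 and −0.35 from left to right.

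eIF3 is the largest initiation factor, an assembly of many subunits that holds the small ribosomal subunit and the other factors. All 13 eIF3 mRNAs had a relative shift below 0, with a median of −0.92 (−0.51 without fraction 1). Of the 13, 8 were called lower, 0 higher and 5 were not called. Of all 13148 genes, 6574 had a relative shift below 0, and the rule called 24.0% lower and 23.6% higher. The median position of the 13 was 2.79 with arsenite, against 4.90 in the control. Their median share in fractions 5 to 8 was 10.8% with arsenite, against 69.2% in the control. The subunits with PCI or MPN domains, which form the core, had 4 of 8 called lower and a median of −0.49. The other 5 subunits had 4 called lower and a median of −1.16. EIF3I, which encodes a subunit made of WD40 repeats, was the lowest. In the arsenite gradient, fractions 1 to 8 held 45.1, 28.1, 15.7, 6.57, 2.73, 0.869, 0.560 and 0.396% of EIF3I. The control shares were 3.62, 4.10, 8.34, 7.83, 24.0, 41.4, 8.41 and 2.27%. Fraction 1 was the largest with arsenite and fraction 6 in the control. Its position was 2.01 with arsenite, against 5.14 in the control, and its relative shift was −1.68. EIF3L, a PCI subunit, was the highest of the 13. Shares of EIF3L with arsenite were 8.88, 24.9, 38.8, 16.2, 7.15, 2.03, 1.26 and 0.716% in fractions 1 to 8. The same fractions held 2.06, 11.5, 26.7, 10.7, 9.31, 20.0, 17.0 and 2.74% in the control. Its control profile had a peak in fraction 3 and another in fractions 6 and 7, its arsenite profile peaked in fraction 3, and its relative shift was −0.07.

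Among the PCI and MPN subunits, EIF3C had a relative shift of −1.66 and the highest control position of all members, with a position of 3.10 with arsenite, against 6.21 in the control. Its share in fraction 7 was 0.769% with arsenite, against 53.7% in the control. EIF3C has a near-identical copy, EIF3CL, in the genome, so its reads may be mixed with those of the copy and its profile is uncertain. EIF3M followed with −1.26, or −1.93 with size factors, and it rested on fraction 1, which held 52.1% with arsenite, against 6.08% in the control. Without fraction 1 its relative shift was −0.48 and not called. EIF3K had −0.92 (−1.81 with size factors). EIF3H had −0.52, which fell short of the threshold without fraction 1 (−0.16), 6 (−0.27), 7 (−0.47) or 8 (−0.50). EIF3E (−0.45), EIF3A (−0.37), EIF3F (−0.16) and EIF3L (−0.07) were not called. EIF3A, the scaffold and the largest subunit, had the highest position with arsenite among the 13, 4.28, against 6.11 in the control. Its largest share lay in fraction 5 with arsenite (37.7%, against 8.75% in the control) and in fraction 7 in the control (4.17% with arsenite, against 32.9% in the control). It was called with size factors (−1.31) and without fraction 5 (−0.82) or 6 (−0.70). EIF3E was likewise called with size factors (−0.79) and without fraction 2 (−0.60), 3 (−0.64) or 4 (−0.52), and EIF3F without fraction 3 (−0.58).

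Of the other eIF3 subunits, EIF3D, which can itself bind the cap of some mRNAs, had a relative shift of −1.19, or −2.01 with size factors. EIF3G, an RNA-binding subunit, had −1.16, or −1.84 with size factors, and EIF3B, the scaffold for EIF3G and EIF3I, had −0.93. EIF3J, which is loosely attached to the complex, had −0.25 and was not called.

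The eIF4 group was the only group with calls in both directions. Of its 15 mRNAs, 5 were called higher, 4 lower and 6 were not called, where the rule called 23.6% of all genes higher and 24.0% lower. Relative shifts ran from −1.73 to 0.98 with a median of 0.21. All genes had quartiles of −0.52 and 0.48, and the 15 mRNAs had similar ones, −0.53 and 0.55. Their median position was 3.34 with arsenite, against 4.81 in the control, and their median share in fractions 5 to 8 was 18.7% with arsenite, against 57.4% in the control. The median lost its sign with size factors (−0.05) and when genes listed at 0 in any library were left out (−0.01), and it ran from 0.03 to 0.36 on leaving out each fraction.

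The cap-binding proteins differed among themselves. EIF4E encodes the cap-binding subunit of eIF4F and was called higher. EIF4E had 8.76, 22.2, 23.7, 21.2, 16.4, 4.19, 2.31 and 1.22% of its total in fractions 1 to 8 with arsenite. Control cells gave 4.80, 13.6, 11.5, 14.9, 34.1, 11.7, 7.58 and 1.82% in the same order. Fractions 2, 3 and 4 held nearly equal shares with arsenite, and fraction 5 was the largest in the control. Its position was 3.42 with arsenite, against 4.35 in the control, and the relative shift of 0.53 was between 0.42 and 0.48 without fraction 1, 2, 6, 7 or 8 and not called there, while size factors gave 1.10. Its homologue EIF4E3 was called higher (0.67), but not without fraction 6 or 7 (0.46 each). EIF4E2, which encodes the cap-binding repressor 4EHP, had −0.46 and was not called, though it passed with size factors (−0.89) and without fraction 4 (−0.73), 7 (−0.64) or 8 (−0.51).

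The eIF4E-binding proteins, which keep eIF4E away from eIF4G when mTOR is inactive, were split as well. EIF4EBP2 had the highest relative shift of all members. Across fractions 1 to 8 with arsenite, EIF4EBP2 had shares of 6.96, 30.2, 35.9, 13.6, 8.52, 2.57, 1.40 and 0.831%. Without arsenite the shares were 2.73, 21.0, 36.1, 16.4, 14.4, 5.75, 2.49 and 1.11%. Fraction 3 was the largest in both gradients, and its control position was the lowest of the 52. Its position was 3.04 with arsenite, against 3.52 in the control, and its relative shift was 0.98. EIF4EBP1 had the lowest position with arsenite of all members, 1.65, against 3.76 in the control. Fraction 1 held 60.8% of it with arsenite, against 7.94% in the control, and it was called lower with a relative shift of −0.66. Without fraction 1 the value was −0.05, and without fraction 4 or 5 it was −0.33 and −0.37. With size factors it was −1.17 and without fraction 2 it was −1.01, and in none of these was it called. EIF4EBP3 was called higher (0.57), but it is listed at 0 in fractions 1 to 3 of both gradients, shares its locus with the read-through gene ANKHD1-EIF4EBP3 and had −0.05 with size factors. It was also not called without fraction 1 (0.41), 2 (0.44) or 6 (0.33). EIF4ENIF1, which encodes the eIF4E transporter 4E-T, was not called (−0.30).

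The 3 eIF4A helicase mRNAs ranged from −1.73 to 0.68. EIF4A3, which encodes the helicase of the exon junction complex, had the lowest relative shift of the 52. With arsenite, EIF4A3 had shares of 16.8, 30.6, 28.7, 14.0, 5.97, 2.21, 1.12 and 0.610% in fractions 1 to 8. In the control they were 1.53, 2.51, 4.75, 5.35, 7.67, 37.7, 36.2 and 4.28%. Fractions 6 and 7 together held most of it in the control and little with arsenite. Its position was 2.76 with arsenite, against 5.95 in the control, and its relative shift was −1.73. EIF4A1 and EIF4A2 encode the paralogous helicases of eIF4F, and their coding sequences were 76.6% identical and had no 30-base word in common. In the arsenite gradient, fractions 1 to 8 held 8.94, 13.0, 35.1, 25.4, 13.1, 2.50, 1.28 and 0.783% of EIF4A1. The control shares were 1.79, 3.02, 7.19, 6.79, 13.8, 48.9, 15.4 and 3.14%. EIF4A1 thus had its largest share in fraction 3 with arsenite and in fraction 6 in the control. Shares of EIF4A2 with arsenite were 9.86, 11.5, 21.9, 25.5, 24.1, 4.36, 1.68 and 0.944% in fractions 1 to 8. The same fractions held 3.06, 6.93, 24.3, 19.5, 14.3, 20.2, 9.42 and 2.26% in the control. EIF4A2 was spread over fractions 3 to 5 with arsenite and fractions 3 to 6 in the control. EIF4A1 was called lower (−0.69), EIF4A2 higher (0.68), and the difference between them was −1.37 fractions. Without fraction 3 or 6 EIF4A1 was not called (−0.48 each), and without fraction 5 EIF4A2 was not (0.44). Set against genes of like mRNA length EIF4A1 had −0.30 and was not called, and against genes of like control position its sign turned (0.04), while EIF4A2 was called higher in both (0.87 and 0.57). EIF4B, which stimulates eIF4A, had 0.38 and was not called, but passed without fraction 7 (0.76). EIF4H, which does the same, had −0.49 and was not called, but passed without fraction 1 (−0.61), 4 (−0.51), 5 (−0.74), 7 (−0.61) or 8 (−0.53).

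**Figure D4:**
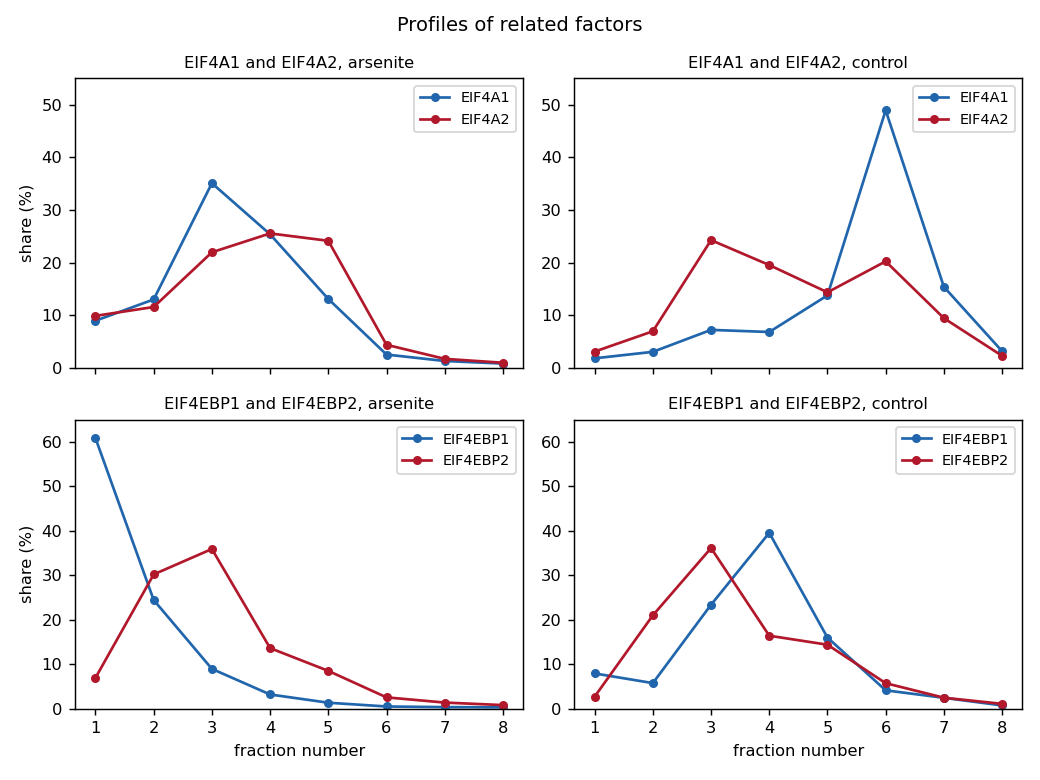
Share of the gene's total (%) by fraction number for EIF4A1 and EIF4A2 (top) and EIF4EBP1 and EIF4EBP2 (bottom), with arsenite (left) and in the control (right), 1 library per point. Within each pair the first gene was called lower and the second higher, with relative shifts of −0.69 and 0.68 (top) and −0.66 and 0.98 (bottom). Within bins of control position EIF4A1 had 0.04 and EIF4EBP2 0.29, neither called, and within bins of mRNA length EIF4A1 had −0.30 and EIF4EBP1 −0.01, neither called.

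EIF4G1, the scaffold that joins eIF4E, eIF4A and eIF3, had a high position in both treatments. EIF4G1 had 2.89, 6.96, 27.1, 26.6, 24.4, 7.41, 3.39 and 1.27% of its total in fractions 1 to 8 with arsenite. Control cells gave 0.748, 2.01, 9.58, 9.47, 8.07, 12.7, 40.2 and 17.2% in the same order. With arsenite fractions 3, 4 and 5 held similar shares, and in the control fraction 7 stood above all others. Its position was 4.05 with arsenite, against 6.07 in the control, and 36.4% lay in fractions 5 to 8 with arsenite, against 78.2% in the control. It was called lower (−0.57, and −1.19 with size factors), but not without fraction 3 (−0.30), 4 (−0.52), 7 (−0.29) or 8 (−0.28). EIF4G2 encodes DAP5, a shortened relative that lacks the eIF4E-binding part and whose reading frame starts at GTG. Across fractions 1 to 8 with arsenite, EIF4G2 had shares of 7.12, 24.2, 30.4, 19.6, 13.0, 3.11, 1.65 and 0.876%. Without arsenite the shares were 2.89, 4.07, 10.2, 29.6, 36.4, 9.78, 4.97 and 2.11%. Fraction 3 was the largest with arsenite and fraction 5 in the control, and the relative shift of 0.21 was not called. EIF4G3 had the flattest control profile of the 3 scaffolds, from 9.50% in fraction 2 to 21.9% in fraction 7. Its relative shift of 0.38 was not called, but it passed without fraction 3 (0.56), 7 (0.65) or 8 (0.63).

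Of the 12 other initiation factors, 0 were called higher, 5 lower and 7 were not called, with a median relative shift of −0.35. The rule called 23.6% of all genes higher and 24.0% lower. The median position of the 12 was 2.62 with arsenite, against 4.55 in the control. Their median share in fractions 5 to 8 was 8.76% with arsenite, against 62.0% in the control. EIF5A, which encodes the hypusine-containing factor that helps ribosomes past difficult stretches, was the lowest. With arsenite, EIF5A had shares of 29.8, 45.9, 13.5, 6.01, 2.34, 1.39, 0.519 and 0.571% in fractions 1 to 8. In the control they were 1.79, 3.92, 8.22, 12.5, 55.4, 12.6, 4.01 and 1.52%. Fraction 2 held the largest share with arsenite and fraction 5 in the control. Its position was 2.14 with arsenite, against 4.77 in the control, and its relative shift was −1.17. EIF5AL1 had −0.90, is listed at 0 in fractions 5 and 6 of the arsenite gradient and was not called without fraction 5 (−0.46). Its coding sequence was 98.9% identical to that of EIF5A and the mRNAs shared 639 words of 30 bases, so reads of the pair may be mixed and both profiles are uncertain. EIF5A2, whose coding sequence was 71.6% identical to EIF5A with no such word in common, had −0.09.

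EIF5 encodes the factor that makes eIF2 hydrolyse its GTP. In the arsenite gradient, fractions 1 to 8 held 12.0, 34.1, 27.1, 11.8, 9.71, 2.74, 1.66 and 0.888% of EIF5. The control shares were 3.54, 6.91, 11.4, 16.5, 25.4, 19.8, 13.2 and 3.23%. Fraction 2 held the largest share with arsenite and fraction 5 in the control, and the relative shift of −0.44 was not called, with −0.50 without fraction 5, which passed. EIF2D, which can deliver initiator tRNA without GTP, was the highest of this group. Shares of EIF2D with arsenite were 13.2, 39.0, 25.4, 14.1, 5.08, 1.90, 0.734 and 0.558% in fractions 1 to 8. The same fractions held 3.77, 16.1, 23.2, 17.8, 20.1, 9.82, 7.28 and 1.93% in the control. Its control shares were spread over fractions 2 to 5, its arsenite profile peaked in fraction 2, and its relative shift was 0.13. EIF6, which keeps the large ribosomal subunit apart from the small one, was called lower at −1.16, or −1.81 with size factors. EIF5B, the GTPase that joins the subunits, had −0.26 and was not called, but passed with size factors (−1.13) and without fraction 5 (−0.74). EIF2A, which is not a subunit of eIF2, had −0.00.

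EIF1 and EIF1B, close paralogues that act in start codon choice, had most of their mRNA in fractions 1 and 2 with arsenite. EIF1 held 44.2% in fraction 1 with arsenite, against 10.3% in the control, and EIF1B held 58.5% with arsenite, against 12.0% in the control. EIF1B was called lower at −1.12. EIF1 was called lower at −0.60, but not without fraction 1 (−0.27) or 5 (−0.25) or with size factors (−0.61). EIF1AX, which encodes eIF1A, had 0.12 and was not called, though size factors gave 1.11, which passed. EIF1AD, whose product has a domain like that of eIF1A, had 0.13 and passed without fraction 6 (0.52).

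The bases around the start codon were read from GENCODE release 29 for 51 members. They are shown for the 3 that had neither a purine 3 bases before the start codon nor a G directly after it, and for the 1 with a start other than ATG, with the start codon in capitals.
EIF1: gaatcgtatcgtATGtccgct
EIF1B: cactagtatcgcATGtccact
EIF3B: agcgttgggcccATGcaggac
EIF4G2: caagccgccaaaGTGgagagt
The 3 mRNAs with such a weak context were 5.88% of the members, against 6.67% of 12594 genes (840 genes), so this context was about as frequent among the members as among all genes. The GTG of EIF4G2 was 1 of 3 annotated starts other than ATG in those 12594 genes.

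The 9 members with a pyrimidine start did not share a direction. EIF4A2 was called higher, EIF3D, EIF3K and EIF3M lower, and the other 5 were not called. Of the 571 genes with such a start in the whole set, 117 were called higher and 128 lower. The median relative shift of the 9 members was −0.00, against −0.49 for the 35 members with a promoter sequence and no such start. Over all genes the medians were −0.03 with such a start and −0.01 without. Of 4 members taken from the literature as TOP mRNAs (EIF3E, EIF3F, EIF3H and EIF4B), 1 was called lower and 3 were not called, with a median of −0.31. EIF3F and EIF4B are among the 9 and EIF3E and EIF3H are not. No promoter sequence was available for 8 members, so absence from the 9 does not by itself mean a different start.

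Relative shifts were also set against annotated mRNA length, taken from 1 GENCODE transcript per gene. Longer mRNAs had higher relative shifts, with a Spearman correlation of 0.42 across the 52 members and 0.39 across 13028 genes. Genes in one table share the same 16 libraries, so these correlations are descriptions and carry no p. The kinase mRNAs were longer, with a median of 4558 nt, than the eIF3 mRNAs (2155 nt), and the median of all genes was 3205 nt. When each gene was instead set against the median of genes of like length, in 10 bins, the median was 0.19 for the kinases, −0.79 for eIF2 and eIF2B, −0.63 for eIF3, 0.05 for the eIF4 group and −0.47 for the others. Each group kept the sign it had without the bins, and 3 members were then called higher and 21 lower, where the same rule called 20.8% and 21.2% of all genes. Within bins of coding length instead, the medians were 0.15, −0.90, −0.69, −0.02 and −0.32 in the same order, so the eIF4 group lost its sign there. EIF2S1 (4485 nt), EIF2B2 (4314 nt) and EIF3M (5051 nt) lay far below the line of all genes at their length. Most of that length lies after the stop codon of the 1 transcript used (3076, 3178 and 3863 nt). Within bins of mRNA length they had −1.27, −1.42 and −1.46, and within bins of coding length −0.96, −1.23 and −1.17. Of the 30 members called, 9 were not called within their bins of mRNA length, namely EIF2AK3 (0.35), EIF4E3 (0.23), EIF4E (0.09), EIF4EBP1 (−0.01), EIF3K (−0.27), EIF4A1 (−0.30), EIF2B4 (−0.42), EIF1 (−0.47) and EIF1B (−0.47). Within bins of coding length these 9 had 0.33, 0.92, 0.78, −0.30, −0.67, −0.65, −0.84, −0.23 and −0.76 in the same order. The annotated mRNA of EIF4E has 11523 nt, 9344 of them after the stop codon, and that of EIF4E3 has 9949 nt, 9266 of them after it. EIF3A (−0.70), EIF5 (−0.77) and EIF5B (−0.59) were called lower within the bins of mRNA length.

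**Figure D5:**
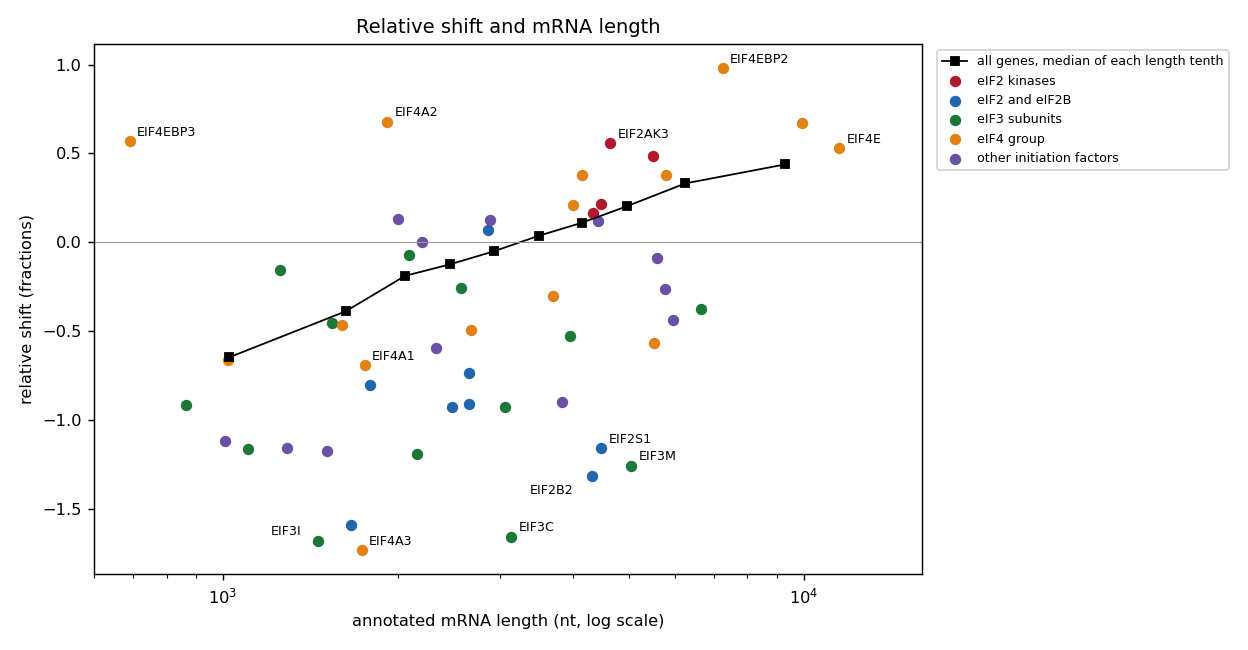
Relative shift (fractions) of the 52 members against annotated mRNA length (nt, log axis), coloured by group, with black squares for the median of all genes in each of 10 length bins. The squares climb from −0.65 in the bin of the shortest mRNAs to 0.44 in that of the longest, and EIF2S1, EIF2B2 and EIF3M lie far below the squares at their length. Each length is that of 1 annotated transcript, and for EIF2S1, EIF2B2 and EIF3M most of it lies after the stop codon.

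Members with a higher control position had lower relative shifts, with a Spearman correlation of −0.51 across the 52 members and −0.55 across all 13148 genes, and the control position enters the relative shift itself. When each gene was set against the median of genes with a like control position, in 10 bins, the median was 0.41 for the kinases, −0.60 for eIF2 and eIF2B, −0.47 for eIF3, 0.10 for the eIF4 group and −0.36 for the others. Of the members, 6 were then called higher and 17 lower, where the same rule called 18.0% and 20.5% of all genes. EIF4A1 (0.04), EIF4G1 (0.16) and EIF4E3 (−0.02) had the opposite sign there. EIF4EBP2 (0.29), EIF4E (0.34), EIF3B (−0.20), EIF2B4 (−0.38), EIF2S1 (−0.43), EIF3D (−0.47) and EIF2B5 (−0.48) kept their sign and were not called. EIF2AK4 (0.51), EIF4B (0.68) and EIF4G3 (0.53) were called higher within these bins.

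Another 31 genes that act on the same steps gave counts of 3 higher, 12 lower and 16 not called, with a median relative shift of −0.34. The same rule called 23.6% of all genes higher and 24.0% lower, and the counts of the smaller lists below are to be read beside these shares. Of the 10 regulators of eIF2 phosphorylation, 2 were called higher and 1 lower. The higher ones were PPP1R15A (1.10) and PPP1R15B (0.68), the stress-induced and the constitutive subunit that direct protein phosphatase 1 to eIF2 alpha. The lower one was PPP1CA (−1.17), a catalytic subunit of that phosphatase. Of the 12 regulators of eIF4F, MKNK2 was called higher (0.64), a kinase of eIF4E, and 4 were called lower. These were PAIP2 (−0.92), an inhibitor of the poly(A)-binding protein, PABPC4 (−0.80), itself a poly(A)-binding protein, PDCD4 (−0.66), an inhibitor of eIF4A, and PAIP1 (−0.63), a partner of the poly(A)-binding protein that promotes translation. Of the 9 other initiation and recycling factors, 0 were called higher and 7 lower, from MCTS1 (−1.62), a partner in tRNA delivery, and the deoxyhypusine synthase DHPS (−1.20), which acts on EIF5A, to the recycling factor ABCE1 (−0.73) and BZW1 (−0.62).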

How the data were processed

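Total RNA of 293S cells was fractionated on sucrose gradients, extracted with Trizol and prepared for sequencing by the NSR method, per the labels' protocols. The authors deposited, per the file headers, the fraction of each gene's exonic total in each of 8 libraries per gradient, and 3 score columns holding the mean fraction number in each gradient and their difference. Per the submitters' processing notes the genome build was hg19. The sources used here do not give the aligner, counting, strand, gene filter, depth or scaling between libraries. Each treatment and fraction had 1 library.

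The 8 shares of a gene summed to 1, and positions recomputed from them matched the deposited scores within 1e-14. Groups were taken from the sample titles and treatment labels. The members, the lists and the rule for named genes were chosen with earlier results of these data known. The rule gave all 16 shares for the member with the highest and the lowest relative shift of each group, and for EIF2S1, EIF2AK1, EIF4E, EIF4G1, EIF4G2 and EIF5. EIF4A1 and other members were detailed after their values were seen. Lengths and start codons came from 1 GENCODE release 29 transcript per gene (13028 genes matched), and start sequences from RefSeq. The rule for calls was run on simulated profiles with planted shifts of 1 fraction, at assumed read numbers and with no differences between libraries. Only 12 members were called at a threshold of that size, so the simulation says little about the other calls. Alternatives were size factors, pseudocounts, thresholds, the point where 50% of the total is reached, genes with no 0, leaving out each fraction and, added after seeing the data, bins of mRNA length and of control position. Bins of coding length were used for relative shifts only, not for calls. Python 3.11.15, numpy 2.4.6, pandas 2.3.3, scipy 1.17.1, matplotlib 3.10.9 and Biopython 1.88 were used.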

Additional observations from a re-analysis of the deposited data

How the results depend on the processing

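No paired analysis was possible because each treatment and fraction had 1 library. The same reason leaves every difference without a replicate check, and depth is unknown, so counting error cannot be set beside any share. Of the 30 members called, 17 kept their call with size factors, with a pseudocount before shares, with the point where 50% of the total is reached, among genes with no 0 and on leaving out each fraction, and 9 (EIF2B1, EIF2B2, EIF2B3, EIF3C, EIF3G, EIF3I, EIF4A3, EIF5A and EIF6) also within bins of mRNA length and of control position. Median-of-ratios size factors bring the typical share in each of the 16 libraries to a common level. They therefore also take out much of the profile along the gradient that most genes have in common. A smaller median shift is thus built into this setting, and the median shift of all genes moved to −0.23 (main −1.46). Relative to it, the median relative shift was −0.83 over all members, −1.33 for eIF2 and eIF2B, −1.31 for eIF3 and −0.052 for the eIF4 group. EIF4EBP3 turned to −0.052. The point where 50% of the total is reached gave −1.18 for eIF2 and eIF2B and −0.64 for eIF3. Leaving out each fraction in turn gave 3 to 8 members called higher, 20 to 25 called lower, against 20.6% to 26.3% and 19.5% to 25.5% of all genes, and eIF3 medians of −0.94 to −0.51. Bins of mRNA length gave 3 called higher and −0.63 for eIF3. Bins of control position gave −0.60 for eIF2 and eIF2B and −0.47 for eIF3, and turned EIF4A1 to 0.036, EIF4G1 to 0.16 and EIF4E3 to −0.021. A threshold of 1 fraction called 0 members higher and 12 lower, against 6.68% and 9.33% of all genes. For the median log2 ratio of the members, a pseudocount of 0.1 gave −3.33 in fraction 7 and −1.74 in fraction 8. A pseudocount of 10 gave 0.67 in fraction 1, 1.00 in fraction 2, −1.19 in fraction 6, −0.79 in fraction 7 and −0.24 in fraction 8. Apart from the smaller median shift built into size factors, the causes of these changes were not tested.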

Other observations

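Coding length and position were related among the initiation factors. Across the 52 members the Spearman correlation of coding length with position was 0.52 with arsenite and 0.35 in the control, against 0.67 with arsenite and 0.38 in the control across 13028 genes. The length after the stop codon gave 0.13 with arsenite and −0.29 in the control across the members, against 0.37 with arsenite and 0.04 in the control across 13028 genes. These are descriptions over genes measured in the same 16 libraries and carry no p. Pairs of related factors differed in relative shift with no 30-base word shared in any of them but EIF5A and EIF5AL1. EIF4G1 lay 0.95 fractions below EIF4G3, with 57.1% of their coding sequences identical. EIF4E lay 0.99 fractions above EIF4E2, with 49.0% identical. EIF4EBP1 lay 1.64 fractions below EIF4EBP2, with 65.4% identical, and EIF5A lay 1.09 fractions below EIF5A2. EIF1 lay 0.52 fractions above EIF1B, with 82.2% identical. Over all genes the quartiles of the relative shift were −0.52 and 0.48. Against genes of like mRNA length, EIF1 and EIF1B had −0.47 each, EIF4E 0.09 and EIF4E2 −0.07, and EIF5A −0.79 and EIF5A2 −0.42. In those bins EIF4EBP1 had −0.01 and EIF4EBP2 0.65, and EIF4G1 had −0.77 and EIF4G3 0.05.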
